A study of Mus musculus with 8 samples.

Results

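The plasminogen activator system is described here by 5 genes, taken from the deposited count table by their symbols, out of 23171 genes in the table. They are Plau, the urokinase-type plasminogen activator, Plaur, its receptor on the cell surface, Plat, the tissue-type activator, and the inhibitors Serpine2 (protease nexin-1) and Serpinb2 (plasminogen activator inhibitor type 2). All 5 passed the filter on low counts that 14004 genes passed. RNA came from the epidermis of mice, 4 with an epidermis-specific Hnrnpu knockout (cKO) and 4 controls (WT), and every mouse had received imiquimod, an agonist of Toll-like receptors used on mouse skin to produce inflammation resembling psoriasis. Hnrnpu encodes a nuclear RNA-binding protein. The sources used here do not give the driver of the deletion, the deleted exons, the strain or the age. No untreated skin was analysed here, so the values compare genotypes under treatment only.

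Plasminogen activators are secreted serine proteases that cut plasminogen, a zymogen made mainly by the liver, into plasmin. Plasmin dissolves fibrin, cuts matrix proteins and activates several matrix metalloproteinases, and urokinase held by its receptor confines this activity to the cell surface. Serpins trap the activators in covalent complexes that are cleared by endocytosis. In skin the system is best known from wound healing, where keratinocytes at the wound edge express urokinase and its receptor, and Serpinb2 is a mostly intracellular serpin of differentiating and activated keratinocytes.

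Libraries held 37158621 to 38865722 counts. Hnrnpu stood at 190, 373, 355 and 312 CPM (read counts relative to library size, scaled with TMM factors) in cKO replicates 1 to 4 and at 455, 424, 431 and 439 CPM in WT replicates 1 to 4, so it was lower in every cKO library and lowest in cKO replicate 1. It did not pass the test across all genes (log2 fold change -0.51 with SE 0.19, adjusted p = 0.191 by edgeR). The labels call the cells keratinocytes, and 8 keratinocyte markers, keratins and desmosomal genes among them, summed to 65683 to 93005 CPM in cKO and 75008 to 97326 CPM in WT, with none called. Markers of skeletal muscle and adipocytes reached at most 1.19 and 0.0965 CPM in cKO and 1.24 and 0.0524 CPM in WT. The 8 follicle outer root sheath and stem cell markers had positive fold changes and summed to 3083 to 4732 CPM in cKO and 1459 to 2392 CPM in WT. Of these, Krt75, Krt79 and Lgr6 rose and the other 5 did not pass, where edgeR called 0.671% of all tested genes higher. All 6 melanocyte markers also had positive fold changes (51.6 to 112 CPM in cKO and 30.5 to 49.4 CPM in WT), with none called by edgeR. So had all 6 sebocyte markers (907 to 2969 CPM in cKO and 649 to 1170 CPM in WT), of which Cidea rose, beside the same 0.671%. The 7 endothelial markers, 2 of them tested and neither called, summed to 1.32 to 2.24 CPM in cKO and 2.71 to 3.67 CPM in WT. In such bulk tissue, fewer cells of a type and less RNA per cell cannot be told apart, and the part of these marker differences in the results below was not tested.

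Plau, the urokinase gene, was the only one of the 5 that passed the test, and it fell. Across all 14004 genes 1.32% were called, and 0.65% were called lower. It stood at 55.0, 59.8, 31.7 and 59.6 CPM in cKO replicates 1 to 4 and at 111, 108, 108 and 131 CPM in WT replicates 1 to 4, from 1313 to 4897 counts per library. Every cKO library lay below every WT library. The lowest value was that of cKO replicate 3 and the highest that of WT replicate 4. The cKO libraries averaged 51.5 ± 13.4 CPM and the WT libraries 114 ± 11.2 CPM (SD, n = 4 each), and the fitted level was 45.1% of that in WT. The log2 fold change was -1.15 ± 0.19 (SE, 95% confidence interval -1.58 to -0.72, edgeR quasi-likelihood test, adjusted p = 0.0318). An exact permutation test gave p = 0.0286, which is the smallest p that 4 against 4 libraries can give. The gene was put on the list because its fall was already known, so the test is not independent of that choice. The call was lost without cKO replicate 1 (adjusted p = 0.0665) and without WT replicates 1, 2, 3 or 4 (0.0685, 0.0755, 0.0817 and 0.103, all by edgeR), while the log2 fold change stayed between -1.225 and -0.96 with any single library left out.

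Plaur, which encodes the GPI-anchored receptor that binds urokinase, was also below every WT library in every cKO library, but did not pass the test across all genes. Its level was 0.91, 0.42, 0.362 and 1.4 CPM in cKO replicates 1 to 4 and 1.68, 2.63, 4.39 and 3.21 CPM in WT replicates 1 to 4. Counts were low, at 15 to 59 reads per cKO library and 64 to 158 per WT library, and the closest pair, cKO replicate 4 and WT replicate 1, had 59 and 64 reads. The log2 fold change was -1.93 ± 0.48 (SE, 95% confidence interval -3.02 to -0.85, edgeR adjusted p = 0.078, exact permutation p = 0.0286), a fitted 26.2% of WT. DESeq2, which called 8.63% of all genes, called it (adjusted p = 0.00226), and edgeR did so without cKO replicate 4 (-2.39, adjusted p = 0.0494). That was the only 1 of the 8 edgeR fits with 1 library left out to call Plaur. Plau and Plaur were thus 2 of the 5 genes in which all cKO libraries lay below all WT libraries, which 5.82% of all tested genes did. Because Plau was chosen with its fall known, that share of the 5 is a description and not an independent test. None of the 5 had all cKO libraries above all WT libraries, as 5.26% of all tested genes had.

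Receptor transcripts can come from white blood cells as well as from keratinocytes. Of 8 neutrophil markers 7 were in the table and 3 passed the count filter, all with negative fold changes and none called. Their summed level was 6.87 to 30.0 CPM in cKO and 18.8 to 36.2 CPM in WT, most of it Cxcr2, and the granule genes Ltf, Camp and Ngp were at or near 0. The 7 macrophage and monocyte markers summed to 33.6 to 79.2 CPM in cKO and 48.2 to 80.4 CPM in WT, with none called. The 6 Langerhans cell markers summed to 175 to 644 CPM in cKO and 242 to 313 CPM in WT. Of these, 5 had a positive and 1 a negative fold change, with none called. The 5 T cell markers in the table, of 6, summed to 10.3 to 31.4 CPM in cKO and 9.23 to 59.2 CPM in WT, with none called. The T cell sum was highest in WT replicates 3 and 4 (37.9 and 59.2 CPM), where Plaur was also highest. In cKO replicates 1, 2 and 3 the sum (20.4, 23.3 and 31.4 CPM) was above that in WT replicates 1 and 2 (13.8 and 9.23 CPM), while Plaur was lower in those cKO libraries. The part of these cells in the Plaur difference was not tested.

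**Figure D1:**
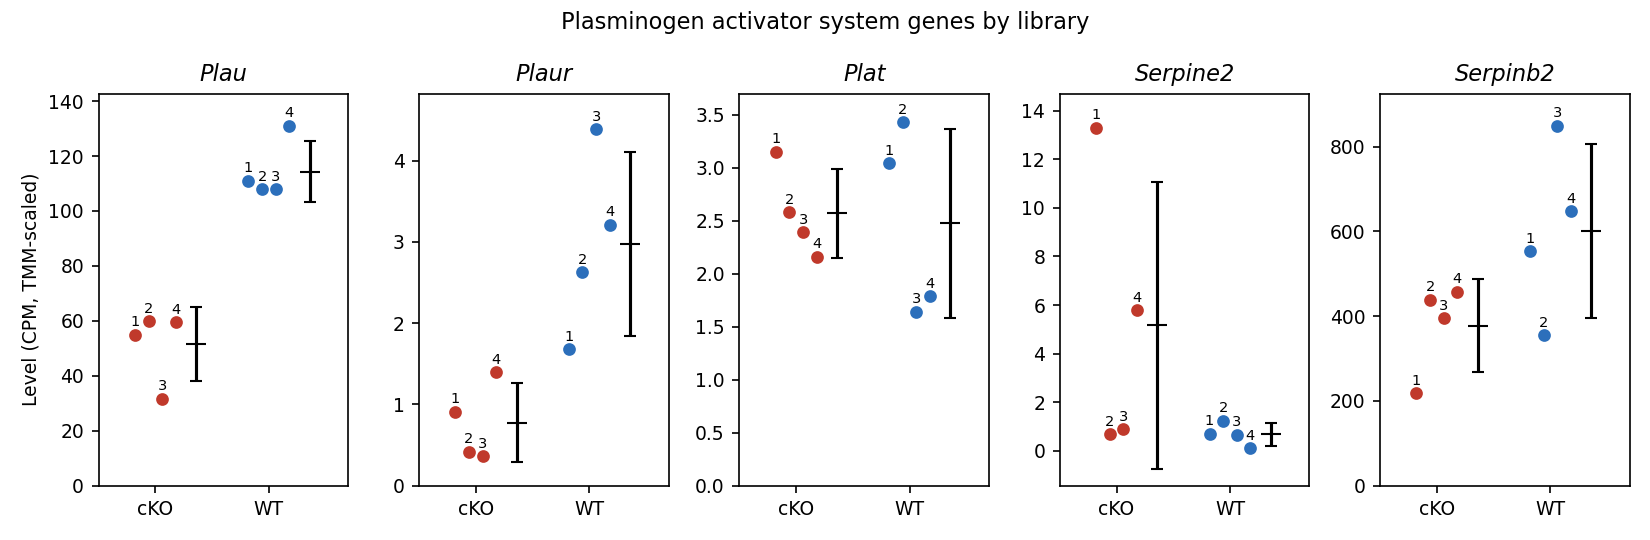
Levels of the 5 genes (y axis, CPM scaled with TMM factors) in cKO (red) and WT (blue) libraries, with replicate numbers beside the points and the mean ± SD of 4 libraries in black. Plau and Plaur do not overlap between genotypes, while Serpine2 is high in cKO replicates 1 and 4 only.

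Plat, the tissue-type activator best known from vessel walls and the nervous system, did not pass the test either. It was at 3.15, 2.58, 2.39 and 2.16 CPM in cKO replicates 1 to 4 and at 3.04, 3.43, 1.64 and 1.79 CPM in WT replicates 1 to 4, so the cKO range lay inside the WT range. The cKO libraries averaged 2.57 ± 0.42 CPM and the WT libraries 2.48 ± 0.893 CPM (SD, n = 4 each). The log2 fold change was 0.05 ± 0.29 (SE, edgeR adjusted p = 0.949), and its 95% confidence interval spans 0.659 to 1.63 times the WT level. Its sign turned without cKO replicate 1, WT replicate 3 or WT replicate 4 (-0.05, -0.10 and -0.08).

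Levels of different genes were compared per length, on the deposited FPKM scale (fragments scaled to transcript length and library size). Plau was the main activator transcript in all 8 libraries and made up 93.4% to 96.7% of the summed FPKM of Plau and Plat in cKO and 97.1% to 98.7% in WT. The order in cKO was Serpinb2 (189 ± 57.5 FPKM), Plau (20.85 ± 5.17), Serpine2 (2.07 ± 2.32), Plat (0.984 ± 0.14) and Plaur (0.515 ± 0.344), and the ranges of the last 3 overlapped each other. The order in WT was Serpinb2 (287 ± 94.3 FPKM), Plau (44.6 ± 4.51), Plaur (1.86 ± 0.675), Plat (0.914 ± 0.338) and Serpine2 (0.261 ± 0.177, SD, n = 4 each), where Plaur and Plat overlapped and the other neighbours in the order did not. Plau therefore exceeded its receptor 26.4 to 88.4 times in cKO and 15.3 to 40.9 times in WT per length, with overlapping ranges.

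**Figure D2:**
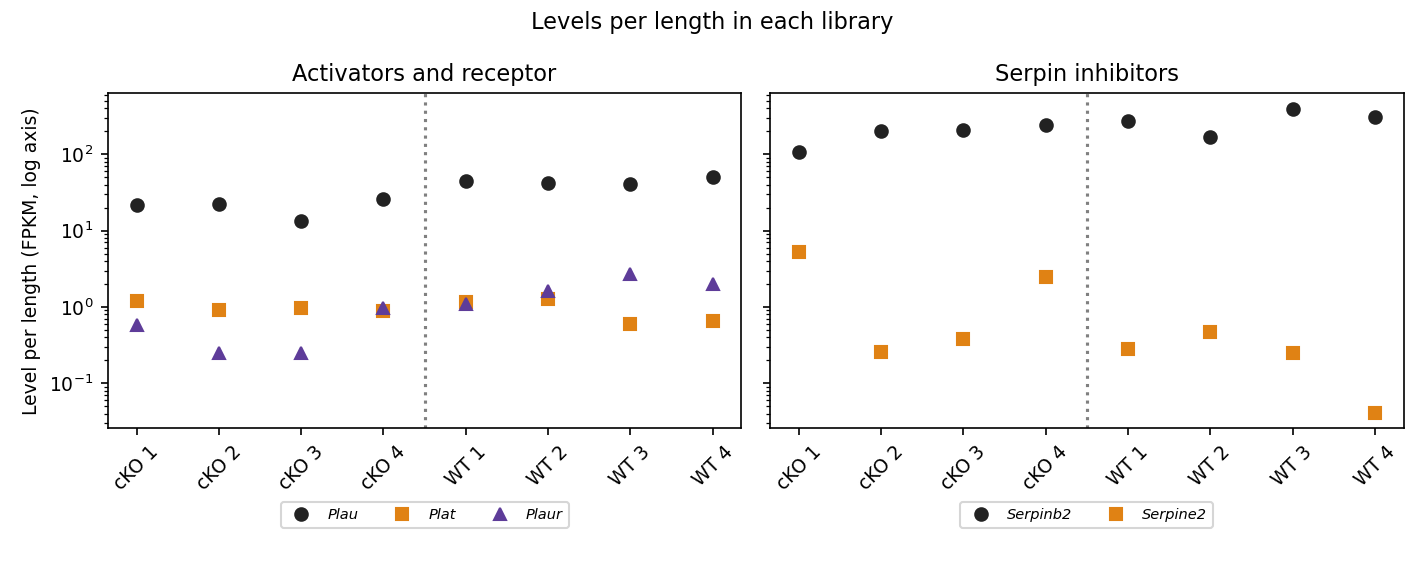
Levels per length (y axis, FPKM, log axis) of the activators and the receptor (left) and of the serpin inhibitors (right) in each library, cKO left of the dotted line and WT right of it. Serpinb2 exceeds Plau in every library and Serpine2 in cKO replicates 1 and 4 lies above every WT library.

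Serpine2, a secreted serpin that inhibits urokinase, tissue-type activator, plasmin and thrombin, was high in cKO replicates 1 and 4 only. It stood at 13.3, 0.7, 0.893 and 5.8 CPM in cKO replicates 1 to 4 and at 0.708, 1.24, 0.667 and 0.107 CPM in WT replicates 1 to 4, which is 510, 25, 37 and 244 reads against 27, 45, 24 and 4 reads. The cKO replicates 2 and 3 lay within the WT range. The cKO libraries averaged 5.17 ± 5.89 CPM and the WT libraries 0.681 ± 0.465 CPM (SD, n = 4 each), a log2 fold change of 2.92 ± 0.99 (SE, 95% confidence interval 0.69 to 5.15) that did not pass (edgeR adjusted p = 0.162, exact permutation p = 0.171). Without cKO replicate 1 the fitted cKO level was 3.67 times that of WT instead of 7.56 times. These 2 libraries also had the lowest Hnrnpu levels, 190 and 312 CPM, beside 373 and 355 CPM in cKO replicates 2 and 3. Their summed outer root sheath markers, 3154 and 3628 CPM, lay between those of cKO replicates 2 and 3 (3083 and 4732 CPM). The 6 fibroblast markers, of which 4 passed the count filter and none was called, summed to 1.09 and 2.02 CPM in cKO replicates 1 and 4, to 3.75 and 2.46 CPM in cKO replicates 2 and 3 and to 1.15 to 9.92 CPM in WT. The part of the Hnrnpu level and of these cell types in the Serpine2 levels was not tested.

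Serpinb2 was by far the most abundant of the 5 genes, at a higher mean FPKM than 98.1% of tested genes, and it did not pass the test. It stood at 219, 439, 395 and 458 CPM in cKO replicates 1 to 4 and at 553, 356, 850 and 648 CPM in WT replicates 1 to 4. The genotypes overlapped only through WT replicate 2, which lay below 3 of the cKO libraries. The cKO libraries averaged 378 ± 109 CPM and the WT libraries 602 ± 205 CPM (SD, n = 4 each), with a log2 fold change of -0.67 ± 0.29 (SE, 95% confidence interval -1.32 to -0.02, edgeR adjusted p = 0.255, exact permutation p = 0.143). Per length, Serpinb2 exceeded Plau 4.88 to 15.3 times in cKO and 4.06 to 9.65 times in WT, with the highest ratio in cKO replicate 3, where Plau was lowest. In the GENCODE M21 annotation (GRCm38), Serpinb2 overlaps Serpinb10 on the same strand. The sources used here do not name the annotation behind the counts, so the division of reads between the 2 genes is uncertain.

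**Figure D3:**
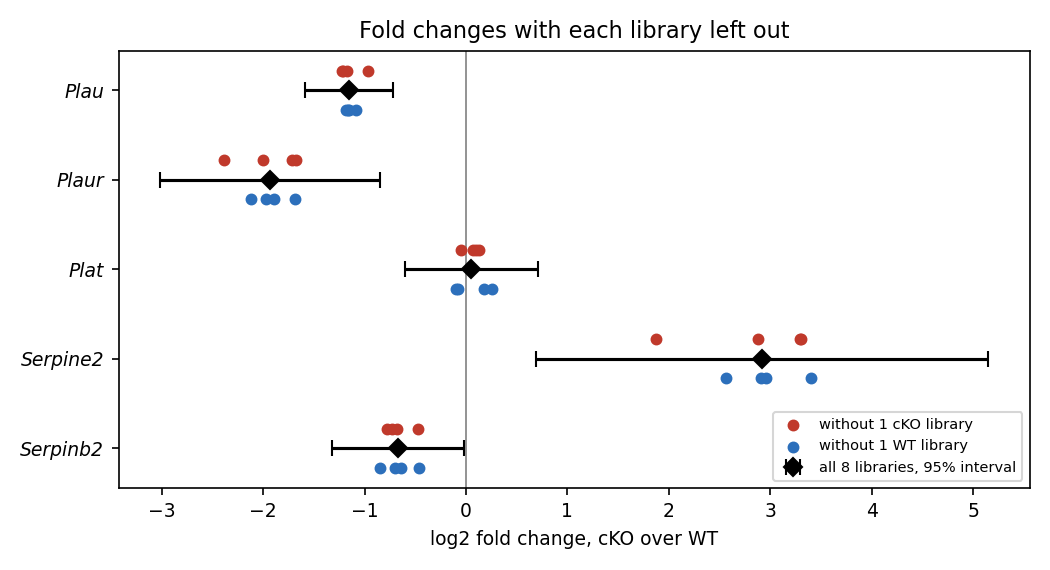
Log2 fold changes, cKO over WT (x axis), of the 5 genes from all 8 libraries (diamonds, with 95% confidence intervals) and with 1 cKO (red) or 1 WT library (blue) left out. Plat lies on both sides of 0, and Serpine2 moves most, to 1.88 without cKO replicate 1.

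The sequence just upstream of the transcription start is shown for the genes with an entry in the RefSeq promoter table (build GRCm38.p6), which were 3 of the 5 (Plaur, Serpinb2 and Serpine2), because Plaur and Serpinb2 had lower means in cKO and Serpine2 a higher one. Each stretch is the 250 bases before the start, written 5′ to 3′ on the gene's own strand, and for Serpinb2 the more upstream of its annotated starts. Capitals mark matches on either strand to any of 3 motifs. The first is the binding motif of AP-1 factors, written TGANTCA, where N is any base. The second is the box that positions the polymerase at many regulated genes, written TATAAA. The third is the GC box, known as the binding motif of Sp1-type factors, written GGGCGG.
Plaur (chr7:24462233-24462482, plus strand): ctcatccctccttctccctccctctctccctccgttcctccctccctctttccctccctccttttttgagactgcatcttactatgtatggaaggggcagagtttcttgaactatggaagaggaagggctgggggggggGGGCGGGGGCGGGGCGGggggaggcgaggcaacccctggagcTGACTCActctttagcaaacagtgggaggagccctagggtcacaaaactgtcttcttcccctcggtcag
Serpinb2 (chr1:107511173-107511422, plus strand): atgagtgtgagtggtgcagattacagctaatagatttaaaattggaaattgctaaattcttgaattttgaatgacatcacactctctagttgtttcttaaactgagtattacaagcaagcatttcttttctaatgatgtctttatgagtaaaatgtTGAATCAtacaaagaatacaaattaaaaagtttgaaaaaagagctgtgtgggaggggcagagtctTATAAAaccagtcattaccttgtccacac
Serpine2 (chr1:79858666-79858915, minus strand): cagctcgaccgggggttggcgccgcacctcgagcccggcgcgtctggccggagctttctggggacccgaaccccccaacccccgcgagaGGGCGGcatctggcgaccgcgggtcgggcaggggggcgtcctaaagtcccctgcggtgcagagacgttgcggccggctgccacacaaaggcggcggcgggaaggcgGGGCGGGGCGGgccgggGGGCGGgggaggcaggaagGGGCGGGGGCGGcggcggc
Among 32851 promoters of the same length in the table, 6.75% held the AP-1 motif, 12.4% the polymerase-positioning box and 32.7% the GC box. Plaur held the AP-1 motif starting 69 bases before its start and 3 GC boxes. Serpinb2 held the AP-1 motif starting 94 bases and the polymerase-positioning box starting 29 bases before its start, and no GC box. Serpine2 held 6 GC boxes and neither of the other motifs, and its window had 78.8% G and C bases, against 59.6% in Plaur and 32.4% in Serpinb2. Some GC boxes overlap each other, and none overlaps another motif. These are matches of letters and were not tested for binding.

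Other genes of the pathway were read from 6 lists. The lists were chosen with earlier results of these data known, so their called shares, here and below, are descriptions and not independent tests. Plasminogen itself was close to absent as RNA, with Plg at 0 or 1 reads in every library. Of 13 genes for plasminogen, its binders at the cell surface and inhibitors of fibrinolysis, 6 passed the count filter, with 3 positive and 3 negative fold changes and a median log2 fold change of -0.05, beside 0.01 over all tested genes. None of the 6 was called by edgeR, DESeq2 or limma-voom, and none had an unadjusted p below 0.05, beside 18.6% of all tested genes. The most abundant were Anxa2, which forms a plasminogen-binding complex with S100a10, averaging 1124 CPM in the cKO and 1226 CPM in the WT libraries (log2 fold change -0.12 with SE 0.15, adjusted p = 0.705 by edgeR), and Eno1, a glycolytic enzyme that also binds plasminogen at the cell surface (-0.30 ± 0.22, adjusted p = 0.504).

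Among partners and clearance receptors of urokinase and its receptor, 2 of 14 tested genes fell and none rose, beside 1.32% called over all genes. Of the 14, 12 had negative fold changes (median -0.22, beside 0.01 over all tested genes). Itga5, the integrin α5 subunit of the fibronectin receptor, stood at 6.5, 4.65, 4.13 and 5.69 CPM in cKO replicates 1 to 4 and at 11.6, 13.2, 15.7 and 14.7 CPM in WT replicates 1 to 4, a 2.63-fold fall (log2 fold change -1.39 ± 0.18, edgeR adjusted p = 0.0172). Every cKO library was below every WT library, and the call was lost without WT replicate 3 or 4 (adjusted p = 0.079 and 0.0573). Lrp1, the endocytic receptor that clears complexes of activators and serpins, stood at 66.8, 74.8, 60.2 and 50.7 CPM in cKO replicates 1 to 4 and at 99.6, 115, 97.2 and 109 CPM in WT replicates 1 to 4 (1.67-fold, -0.74 ± 0.13, adjusted p = 0.0337). Here too the genotypes did not overlap. In 2 of the 14 genes all cKO libraries lay below all WT libraries, beside 5.82% of all tested genes. The edgeR call of Lrp1 held only without cKO replicate 2 or 4, and was lost without any of cKO replicates 1 and 3 and WT replicates 1 to 4 (adjusted p = 0.0637, 0.0667, 0.0677, 0.0821, 0.0794 and 0.108). The integrin subunit genes Itgb1 (-0.54 ± 0.19, adjusted p = 0.174) and Itgb5 (-0.19 ± 0.18, adjusted p = 0.599) had the highest FPKM among the members that did not pass.

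Of 19 tested genes for proteases that activate or act beside urokinase, their inhibitors and plasmin substrates, 1 fell and none rose by edgeR, beside 1.32% called over all genes (12 negative fold changes, median -0.28). DESeq2 called 7 of the 19, all lower, beside 8.63% of all genes, and limma-voom 3, all lower, beside 1.21%. By edgeR with no low-count filter, 5 genes of the list were called lower and 1 higher, where 349 genes were called in all. Without cKO replicate 2, 6 were called lower and 1 higher, where 506 genes were called in all. With the replicate number as a block, 1 was called lower and 1 higher, where 216 genes were called in all. The 1 gene that fell by edgeR with all 8 libraries, where 185 genes were called in all, was Mmp9, gelatinase B. It was at 1.87, 5.21, 1.38 and 0.571 CPM in cKO replicates 1 to 4 and at 11.3, 16.3, 22.1 and 18.9 CPM in WT replicates 1 to 4, a 7.64-fold fall (log2 fold change -2.93 with SE 0.57, adjusted p = 0.0439 by edgeR). The fall was 13.3-fold without cKO replicate 2, and the call was lost without cKO replicates 1 or 3 (adjusted p = 0.0964 and 0.0887) and without WT replicates 1 to 4 (0.0701, 0.0897, 0.105 and 0.115). It was also lost with the replicate number as a block (-3.24, adjusted p = 0.0513). In 1 of the 19 genes all cKO libraries lay above all WT libraries, beside 5.26% of all tested genes. In 6 of the 19 genes all cKO libraries lay below all WT libraries, beside 5.82% of all tested genes. Among the others, named after their values were seen, were Mmp3 (stromelysin-1), Mmp13 (collagenase-3), Met (the receptor of hepatocyte growth factor) and Lama3 (the laminin α3 chain). Mmp3 averaged 2.06 CPM in cKO and 15.1 CPM in WT (-2.88 ± 0.67, adjusted p = 0.0654), and -4.02 with an adjusted p = 0.00809 without cKO replicate 2. Mmp13 averaged 3.16 CPM in cKO and 19.9 CPM in WT (-2.67 ± 0.56, adjusted p = 0.053). Mmp13 and Met were called without cKO replicate 2 too (adjusted p = 0.0169 and 0.032), where Mmp13 stood at -3.33. Mmp3, Mmp13 and Met were each called in only that 1 of the 8 edgeR fits with 1 library left out. With all 8 libraries, DESeq2 called Mmp3 (adjusted p = 0.00447), Mmp13 (2.26e-05) and Met (0.00125), limma-voom called Mmp3 (0.0326) and Mmp13 (0.0303), and edgeR with no low-count filter called Mmp3 (0.0378), Mmp13 (0.0254) and Met (0.0395). The Kunitz-type protease inhibitors Spint2 (0.03 ± 0.10, adjusted p = 0.918) and Spint1 (-0.21 ± 0.15, adjusted p = 0.509) had the highest FPKM among the rest of that list.

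None of 14 tested Ly6 and uPAR-domain relatives of Plaur was called by edgeR or limma-voom, and 3 were by DESeq2, which called 8.63% of all genes. At an unadjusted p below 0.05, 1 was higher and 2 were lower, beside 18.6% of all genes in either direction (median log2 fold change 0.11). The most abundant were Ly6d and Lypd3, which encode GPI-anchored proteins of the surface of squamous epithelia, Lypd3 having the uPAR-type domains of the receptor. Lypd3 was at 779, 944, 645 and 725 CPM in cKO replicates 1 to 4 and at 981, 1243, 1579 and 1473 CPM in WT replicates 1 to 4 (-0.77 ± 0.17 SE, edgeR adjusted p = 0.0577), and Ly6d averaged 1578 CPM in cKO and 2364 CPM in WT (-0.58 ± 0.13, adjusted p = 0.06). Both genes had all cKO libraries below all WT libraries, and they were the only 2 of the 14 to do so, beside 5.82% of all tested genes. Of the 8 edgeR fits with 1 library left out, only that without cKO replicate 2 called them (adjusted p = 0.0378 for Lypd3 and 0.0225 for Ly6d). That fit called 506 genes in all, beside 185 with all 8 libraries.

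None of 16 tested serpins of clades B and E other than the 2 described above was called by edgeR or limma-voom, and 3 were by DESeq2, beside 8.63% of all genes. At an unadjusted p below 0.05, 3 were higher and 1 was lower, beside 18.6% of all genes (median -0.13). Serpinb5, maspin, was close in mean between genotypes, with 1061 CPM in the cKO and 1065 CPM in the WT libraries (-0.01 ± 0.12 SE, edgeR adjusted p = 0.987), and Serpinb3a, of a family of near-identical copies whose reads may be divided uncertainly, was at -0.80 ± 0.38 (adjusted p = 0.292). Of 7 tested tissue factor and protease-activated receptor genes none was called by edgeR or limma-voom and 2 were by DESeq2, with 1 higher and 2 lower at an unadjusted p below 0.05 (median -0.35), beside the same 8.63% and 18.6% of all genes. F3, tissue factor, was at -0.42 ± 0.36 (adjusted p = 0.566). Thbd, thrombomodulin, averaged 75.1 CPM in the cKO and 167 CPM in the WT libraries, and the genotypes did not overlap (-1.15 ± 0.25, edgeR adjusted p = 0.055, and 0.0444 with the replicate number as a block). It was the 1 of these 7 genes with all cKO libraries below all WT libraries, beside 5.82% of all tested genes. Thbd was called under 3 of 18 alternatives, and under none of the 8 edgeR fits with 1 library left out (adjusted p = 0.061 to 0.15).

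**Figure D4:**
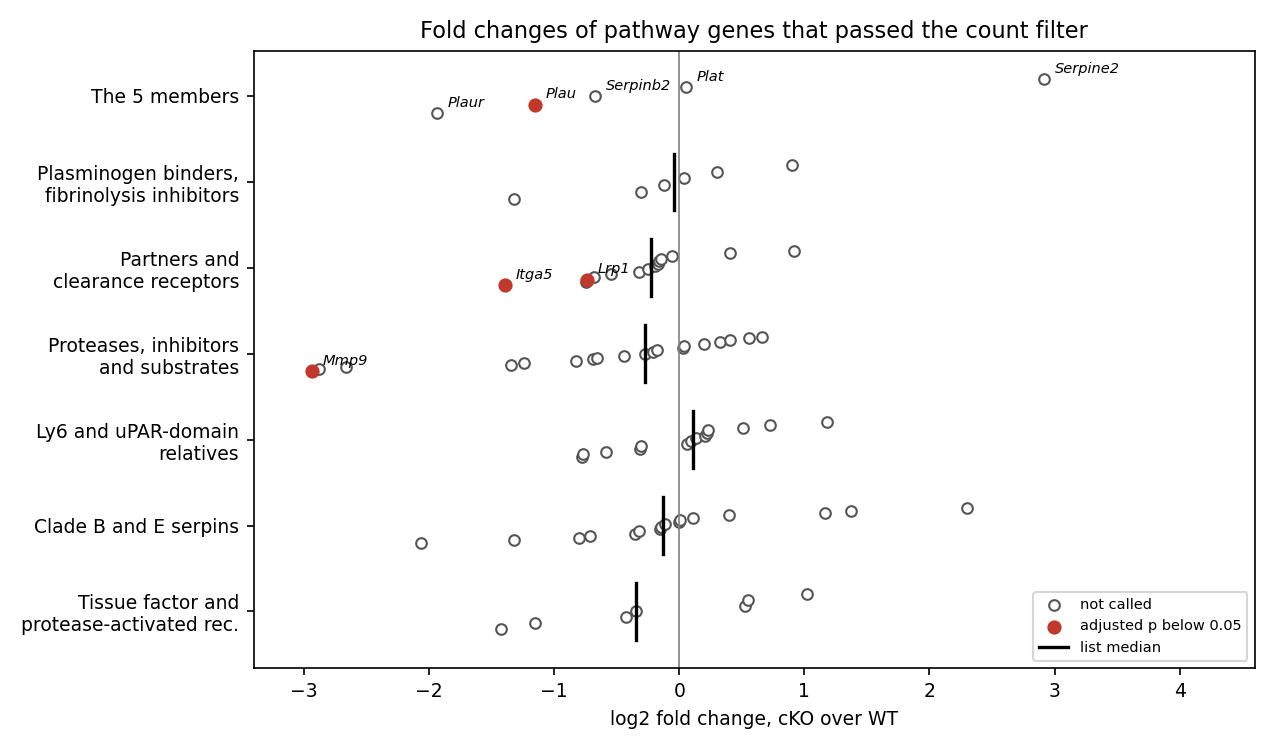
Log2 fold changes, cKO over WT (x axis), of the 5 genes and of each tested gene in the 6 lists (circles), with list medians as bars and genes at an edgeR adjusted p below 0.05 filled in red and named. The called genes, Plau, Itga5, Lrp1 and Mmp9, all lie left of 0.

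The 3 protein-coding genes on either side of each of the 5, in RefSeq gene order (GRCm38.p6), were read as well, a choice made after values had been seen. Next to Plau, Vcl, which encodes the adhesion protein vinculin, fell as well, averaging 75.0 ± 5.09 CPM in the cKO and 124 ± 17.1 CPM in the WT libraries (SD, n = 4 each). Its log2 fold change was -0.72 ± 0.11 (edgeR adjusted p = 0.0301). Vcl was the only neighbour of any of the 5 that edgeR called with all 8 libraries, beside 1.32% of all tested genes. That call was lost without cKO replicates 1 or 3 (adjusted p = 0.0653 and 0.063) and without WT replicates 2, 3 or 4 (0.0755, 0.079 and 0.0868). Camk2g, on the other side of Plau, was at -0.26 ± 0.14 (adjusted p = 0.369). The neighbours of Plau other than Vcl ran from -0.26 to 0.04. Next to Plaur, the cell adhesion gene Cadm4 averaged 2.36 ± 1.67 CPM in the cKO and 11.6 ± 5.85 CPM in the WT libraries and did not pass (-2.31 ± 0.59, adjusted p = 0.0819). It was called under 2 of 18 alternatives, with the replicate number as a block (edgeR adjusted p = 0.0484) and by DESeq2 (adjusted p = 0.00108). Serpinb2 is flanked by serpins with higher means in cKO, with Serpinb7 at 112.7 ± 49.2 CPM in the cKO and 50.4 ± 18.6 CPM in the WT libraries (1.16 ± 0.37, adjusted p = 0.136, and 0.024 with the replicate block). Serpinb7 was called under 2 of 18 alternatives. Serpinb10, on its other side, had 75.1 ± 38.7 CPM in the cKO and 28.9 ± 4.02 CPM in the WT libraries (1.38 ± 0.34, adjusted p = 0.0759, and 0.0169 without cKO replicate 2). That fit called 506 genes in all and was the only 1 of the 8 with 1 library left out to call Serpinb10. Of 18 alternatives in all, 3 called Serpinb10. The tested neighbours of Plat and Serpine2 ran from -0.14 to 0.37, and none was called by edgeR.

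**Figure D5:**
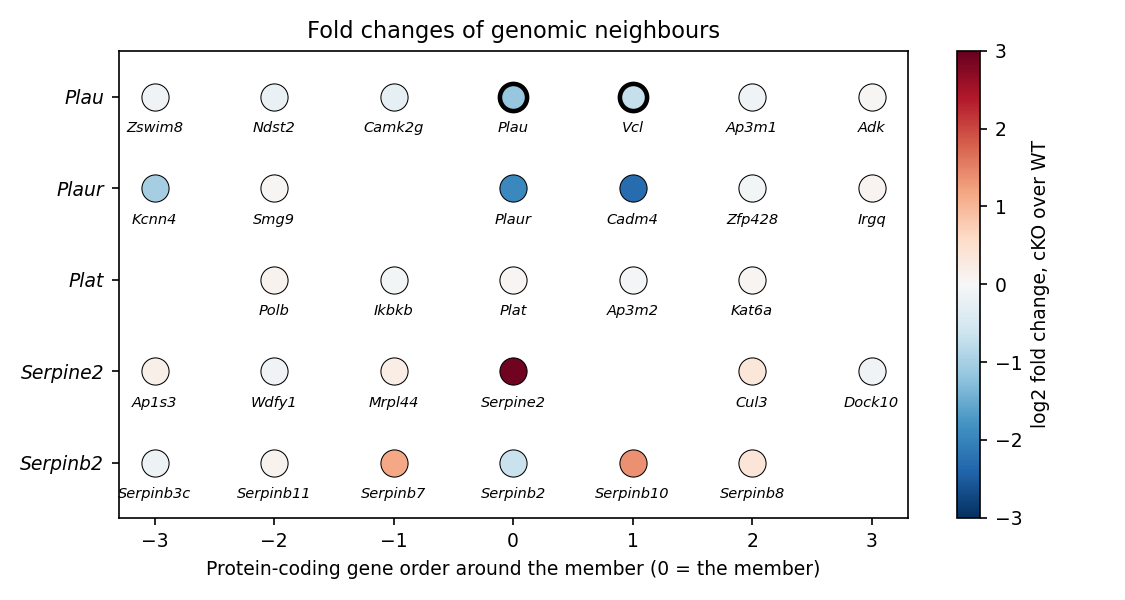
Log2 fold change, cKO over WT (colour), of each of the 5 genes and of the tested protein-coding genes up to 3 places to either side (x axis, gene order, not distance), with thick outlines for an edgeR adjusted p below 0.05. Plau and its neighbour Vcl are outlined, and Serpinb2 is blue between Serpinb7 and Serpinb10 in red.

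Across the 8 libraries, the genes most like each of the 5 were ranked by Pearson's r of log2 CPM among 10021 named genes that averaged 4 CPM or more, as a description of these libraries that includes the difference between genotypes. The highest r among so many genes over 8 libraries was not tested against chance. Genes among the 3 most like Plau were Gjb2, the gap junction protein connexin 26 (r = 0.99), and Nol11, a nucleolar protein (0.987). Gjb2 fell with it, averaging 564 ± 216 CPM in the cKO and 2017 ± 466 CPM in the WT libraries (SD, n = 4 each, edgeR adjusted p = 0.0337), a call lost without cKO replicate 1 (0.0668) and without WT replicates 1 to 4 (0.0595, 0.0755, 0.0871 and 0.103). Plaur was most like Upf1, the helicase of nonsense-mediated decay (0.969), Fam217b (0.966) and the exosome subunit gene Exosc5 (0.965), none of which was called by edgeR. Plat was most like Eogt (0.969), Large2 (0.914) and Ndufa13 (0.91), Serpine2 had H2aj (0.983) and Wnt10a (0.963) among its 3 most similar genes, and Serpinb2 was most like Cdk13 (0.972), Mbip (0.971) and Fastkd3 (0.968). Among the 5 themselves, r was 0.877 between Plau and Plaur and 0.549 between Plau and Serpinb2, and was -0.484 between Plau and Serpine2 and -0.763 between Plat and Serpinb2.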

How the data were processed

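Gene expression was measured by RNA sequencing of epidermis in 8 libraries, 4 per genotype, grouped by the genotype in their titles. For each gene symbol, the authors deposited read counts (whole numbers) and FPKM values of the same libraries. HISAT2 and HTSeq were used, per the submitters' processing notes. The sources used here give no versions, genome build, annotation or strand setting, so reads of a gene and an antisense partner cannot be told apart. The labels do not say how FPKM was computed by the authors.

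Counts were filtered with filterByExpr and scaled with TMM factors (0.934 to 1.08). The edgeR 4.0.16 quasi-likelihood test (R 4.3.3) compared cKO with WT without covariates, with Benjamini-Hochberg adjustment over all 14004 tested genes and a threshold of 0.05. Standard errors come from the F statistic. Two-sided exact permutation tests used all 70 splits of 4 against 4. The script was tested on simulated counts. No pair of libraries of 1 genotype agreed within sampling noise (chi-square per degree of freedom at least 47.9). The design text gives 4 mice per genotype. The lowest counts in a library were 15 reads for Plaur, 59 for Plat and 4 for Serpine2.

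The 5 genes and the lists were chosen with earlier results of these data known. Named genes are the 5, all called list members, the 2 uncalled members of each list with the highest mean FPKM, and the 3 genes most correlated with each of the 5 (log2 CPM, prior count of 2). Some genes that the rule names are not reported here. Other list genes, and the genomic neighbours, are named as chosen after their values were seen. Alternatives were DESeq2 1.42.0, limma-voom (limma 3.58.1), other scalings and filters, log2(FPKM + 1) and log2(FPKM + 0.1) with limma, a replicate block and leaving out each library.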

Additional observations from a re-analysis of the deposited data

Results flagged for a closer look

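Among 66 sets of 4 libraries (33 genes in each genotype), 3 held a library whose gap to its nearest neighbour on the log2 CPM scale took up more of the range than Dixon's critical value for 4 values, where chance gives about 1 set in 20. Plau was low in cKO replicate 3, at 31.7 CPM against 55.0 to 59.8 CPM in the other cKO libraries. Without that library its log2 fold change was -0.96 with an edgeR adjusted p = 0.017. Plau was high in WT replicate 4, at 131 CPM against 108 to 111 CPM in the other WT libraries. Eogt, the gene most like Plat, was high in cKO replicate 1, at 28.4 CPM against 24.7 to 25.1 CPM in the other cKO libraries.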

How the results depend on the processing

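Plau kept its direction under all 18 alternatives and lost its call under 6, the 5 left-out libraries named above and limma on log2(FPKM + 1) without a filter (log2 fold change -1.09, adjusted p = 0.0851). It ran from -1.225 to -0.96 with 1 library left out. Plaur was called by DESeq2 (-1.94) and ran from -2.39 to -1.68 with 1 library left out. Plat ran from -0.10 to 0.26, turning sign without cKO replicate 1 (-0.05), WT replicate 3 (-0.10) and WT replicate 4 (-0.08). Serpinb2 (18 alternatives) and Serpine2 (17) kept their direction and were not called, and Serpine2 had no value under a filter of 1 CPM in 4 libraries. The number of genes called was 185 (94 higher and 91 lower in cKO), and 1208 (631 and 577) with DESeq2, 349 (177 and 172) with no low-count filter and 19 (11 and 8) with limma on unfiltered log2(FPKM + 1). It ran from 8 to 506 with 1 library left out (5 to 251 higher and 3 to 255 lower). The cause of these shifts was not tested. Same-numbered libraries are not said to share a litter or day, and their deviations from the genotype means correlated at -0.101, 0.127, 0.103 and 0.192 for numbers 1 to 4, so the numbers were not taken as pairs. Not every library correlated best with its own number. With the replicate block 216 genes were called, and Plau was at -1.19 (adjusted p = 0.0337), Plaur at -2.02 (0.115), Plat at 0.11 (0.866), Serpine2 at 2.27 (0.367) and Serpinb2 at -0.67 (0.25), while Mmp9 was no longer called (-3.24, 0.0513). Plaur had 15 to 158 and Serpine2 4 to 510 reads per library.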
